A study of Sus scrofa with 12 samples.

Results

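The genes described are 9 regulators and targets of the tumor suppressor p53: MDM2, MDM4, CDKN1A, CCNG1, GADD45A, GADD45B, GADD45G, BBC3 and PMAIP1. They were chosen by name, as p53 targets and feedback regulators outside the group of mitotic genes, and all 9 were found among the 20674 genes of the expression table. RNA was measured in the endometrium, the lining of the uterus, of Landrace × Yorkshire sows at the end of 114 days of gestation. The basal diet with 3.73% crude fiber was fed to L − N, the control group, and the same diet with 0.05% N-carbamylglutamate (NCG) to L + N. The diet with 7.46% crude fiber was fed to H − N without NCG and to H + N with 0.05% NCG. NCG is an analog of N-acetylglutamate, the activator of the first step of the urea cycle, and it promotes arginine synthesis. The 12 libraries fall into 3 per diet, each taken as 1 sow. The labels number them only as replicates, so p-values measure the spread between these libraries, part of which may be technical.

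p53 is a transcription factor that accumulates when DNA is damaged or a cell is otherwise stressed. It activates genes that stop the cell cycle, help to repair DNA or start apoptosis, and it activates MDM2, the ubiquitin ligase that marks p53 for degradation and so closes a feedback loop. Several of these genes also answer to signals other than p53, among them growth factors, hypoxia and inflammatory cytokines, and the endometrium turns over its own cells during pregnancy and after it.

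The total count per library ranged from 14369781 to 19309724, and 15351 genes passed the filter on low counts, all 9 members included. Levels are given as CPM, read counts scaled to library size by the TMM method, and differences as log2 fold changes from edgeR's quasi-likelihood fit of all 12 libraries with one mean per group. A gene passed a comparison at an adjusted p under 0.05 (Benjamini-Hochberg over all genes tested). Of the libraries, L − N replicate 3 and H + N replicate 1 carried most of the calls of H + N against L − N over all genes, which numbered 1223 with all libraries, 4 without the former and 1 without the latter. Markers of trophoblast were low (28.8 to 58.8 CPM summed, with CYP19A1 at 0 in every library), while markers of epithelium and stroma were high. The tissue is a mixture of cell types, so fewer cells of a type and less RNA per cell cannot be told apart.

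Among the 9 genes, MDM4 was higher with NCG and GADD45A was lower in all 3 diets than in L − N. Both passed the test of any difference among the 4 groups (adjusted p = 0.0163 for MDM4 and 0.0189 for GADD45A), which 6.96% of all genes passed. The other 7 did not. At an unadjusted p under 0.05, CDKN1A, GADD45G and BBC3 joined them, and 27.3% of all genes reached that level. DESeq2 called 4 members, namely MDM4, GADD45A, GADD45G and BBC3, and it called 22% of all genes.

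**Figure D1:**
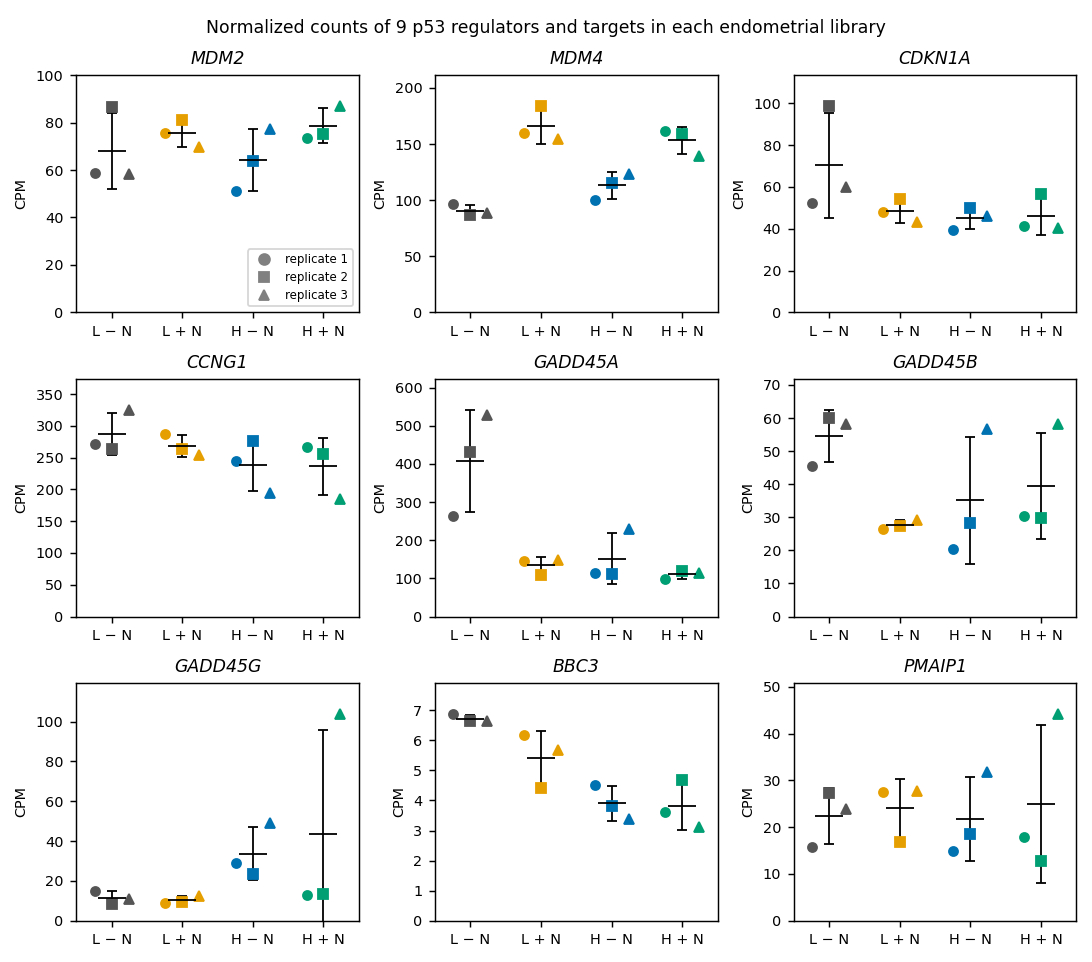
CPM (y axis, from 0) of each of the 9 genes in the 4 dietary groups (x axis). Symbols are single libraries by replicate number, and the black bar with whiskers is the mean ± SD of 3 libraries, drawn only above 0. MDM4 sits at 139.8 to 184 CPM in the groups with NCG and at 87.0 to 124 in those without, and GADD45A is highest in L − N.

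MDM4 is a relative of MDM2 that binds p53 and blocks its activity as a transcription factor. Its gene (ID 100512731) lies on chromosome 9 of Sscrofa11.1 from 65175488 to 65219747, on the plus strand. MDM4 was at 96.1, 87.0 and 88.5 CPM in L − N replicates 1 to 3, and at 160.1, 184 and 154 CPM in L + N. It was at 100.2, 116 and 124 CPM in H − N, and at 161, 159 and 139.8 CPM in H + N. Every library with NCG was above every library without it, and H − N lay between L − N and the groups with NCG, without overlap with either.

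With NCG, MDM4 rose by a log2 fold change of 0.66 (SE 0.0821, 95% interval 0.48 to 0.84, adjusted p = 0.00578, 6 libraries against 6), which is 1.58-fold. In that comparison 2 of the 9 members passed, against 7.27% of all genes, and 1 did not overlap between the groups, against 3.99%. The difference was 0.88 in L + N against L − N (SE 0.117, adjusted p = 0.00818) and 0.76 in H + N against L − N (SE 0.116, adjusted p = 0.0136). In H − N against L − N it was 0.32 (95% interval 0.07 to 0.58, adjusted p = 0.122) and did not pass. On the high-fiber diet, H + N against H − N gave 0.44 (95% interval 0.19 to 0.69), which did not pass after adjustment (unadjusted p = 0.00285, adjusted p = 0.451). H + N and L + N differed by −0.12 (95% interval −0.37 to 0.14, adjusted p = 0.942). The difference between the effects of NCG on the high-fiber and low-fiber diets was −0.44 (unadjusted p = 0.0213, adjusted p = 0.322), so a smaller effect on high fiber did not pass the test.

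The rise of MDM4 with NCG passed in each of the 12 fits that left out 1 library, at 0.62 to 0.69. In H + N against L − N it was lost without L − N replicate 3 (0.74, adjusted p = 0.0724) and without H + N replicate 1 (0.70, adjusted p = 0.0592). MDM4 is a long gene, with a length of 8664 bases in the deposited table, in the longest of 5 equal length classes of the genes tested. In that class the median log2 fold change with NCG was 0.11 and 13.4% of genes passed as higher, while in the shortest class the median was −0.13 and 1.27% passed as higher. With the trend in gene length removed, MDM4 was still higher with NCG, at 0.52 (adjusted p = 0.00895). The part of gene length in the remaining difference was not tested.

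MDM2, the ubiquitin ligase of p53 (ID 100125959), lies on chromosome 5 from 33105717 to 33137602 on the plus strand. MDM2 was at 58.8, 86.5 and 58.4 CPM in L − N, and at 75.5, 81.2 and 69.8 CPM in L + N. It was at 51.1, 63.9 and 77.5 CPM in H − N, and at 73.6, 75.4 and 87.2 CPM in H + N. All 4 groups overlapped in part, and no comparison passed. The log2 fold change with NCG was 0.22 (95% interval −0.06 to 0.51, adjusted p = 0.322), and with high fiber −0.01 (95% interval −0.29 to 0.27, adjusted p = 0.973). The intervals therefore leave out a doubling of MDM2 in either comparison.

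Per length, MDM4 and MDM2 can be set beside each other as FPKM, the deposited measure scaled by gene length and library total. MDM4 was at 9.46 to 11.0 FPKM in L − N and at 18.5 to 22.0 FPKM in L + N, where MDM2 was at 13.6 to 20.1 and 17.9 to 20.7 FPKM. The ratio of MDM4 to MDM2 was 0.76, 0.47 and 0.71 in L − N and 0.99, 1.06 and 1.03 in L + N. It was 0.92, 0.85 and 0.75 in H − N, and 1.02, 0.99 and 0.75 in H + N. The paralogs were thus about even in 5 of the 6 libraries with NCG, and H + N replicate 3 had a ratio like that of the libraries without it. The ratio depends on the deposited gene lengths. MDM2, with 4049 bases, is in the middle length class, where the median log2 fold change with NCG was −0.02, against 0.11 in the class of MDM4. The part of this length trend in the ratio was not tested.

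Genes whose log2 CPM followed MDM4 most closely over the 12 libraries, of 13589 genes compared, were DYNC2H1 (Pearson r = 0.981), C16H5orf42 (0.98), TRA2A (0.977), CCP110 (0.977) and CSNK1G3 (0.971). DYNC2H1 encodes a motor protein of cilia and CCP110 a centriole protein. These are descriptions over libraries that share 4 diets, without a test.

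GADD45A, GADD45B and GADD45G encode small related proteins that bind the kinase MTK1, PCNA and p21 and act in growth arrest, DNA repair and stress kinase signaling. GADD45A is the member of this family best known as a p53 target, while GADD45B and GADD45G respond mainly to cytokines and growth factors. GADD45A (ID 733669) lies on chromosome 6 from 144940702 to 144944089 on the minus strand.

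GADD45A was at 265, 432 and 528 CPM in L − N, and at 144, 109 and 148 CPM in L + N. It was at 115, 111 and 228 CPM in H − N, and at 97.1, 120.05 and 114 CPM in H + N. Every L − N library was above every library of the other diets, and the lowest L − N library was replicate 1, whereas the highest of the others was H − N replicate 3.

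GADD45A fell in each of the 3 diets compared with L − N, and these comparisons share the L − N libraries. In H + N the log2 fold change was −1.89 (SE 0.308, 95% interval −2.56 to −1.21, adjusted p = 0.0156), a level 3.70-fold lower. In L + N it was −1.61 (SE 0.305, adjusted p = 0.0126) and in H − N −1.43 (SE 0.304, adjusted p = 0.0294). In H + N 2 of the 9 members passed, against 7.97% of all genes, in L + N 2, against 9.6%, and in H − N 1, against 5.27%. GADD45A was in each case the member that also exceeded 1 on the log2 scale, the limit the study used for differential expression, which 3.58%, 3.99% and 2.91% of all genes did in the same order.

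Averaged over fiber, GADD45A was lower with NCG by −1.03 on the log2 scale (SE 0.213, adjusted p = 0.0169), also past the limit of 1 (1.8% of all genes). Averaged over NCG, high fiber gave −0.85 (95% interval −1.32 to −0.39, unadjusted p = 0.00191, adjusted p = 0.0918), which did not pass. H + N did not separate from the other diets, with −0.45 for H + N against H − N (95% interval −1.11 to 0.20, adjusted p = 0.691) and −0.28 for H + N against L + N (95% interval −0.93 to 0.38, adjusted p = 0.949). The interaction was 1.16 (95% interval 0.23 to 2.08, unadjusted p = 0.0191, adjusted p = 0.316), with the smaller decrease with NCG on the high-fiber diet, and this did not pass. L + N against H − N was not tested. Averages over a factor therefore describe a gene for which L − N stood apart from the other 3 groups.

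Several calls for GADD45A were lost in fits without 1 library. Over the 12 such fits its log2 fold change was −2.12 to −1.66 in H + N, −1.84 to −1.38 in L + N and −1.85 to −1.20 in H − N. Without L − N replicate 3, where GADD45A was highest, the adjusted p was 0.0731 for H + N, 0.0570 for L + N and 0.117 for H − N, with log2 fold changes of −1.66, −1.38 and −1.20. Of all genes, 4, 207 and 6 passed there in the same order. The call of H + N was also lost without H + N replicate 1 (adjusted p = 0.0592), where 1 of all genes passed. That of L + N was lost without L + N replicate 2 (adjusted p = 0.0567), where 247 passed. For H − N the call was lost as well when replicate 2 of L − N was dropped (adjusted p = 0.0763). The same held when H − N lost its replicate 1 (0.0862) or 2 (0.0765). In these 3 fits 155, 0 and 224 of all genes passed. The call with NCG held in all 12 fits, at −1.15 to −0.82. GADD45A, with 1447 bases, is in the shortest length class. There the median log2 fold change with NCG was −0.13, and 2.6% of genes passed as lower. With the length trend removed, GADD45A still passed with NCG, and the part of gene length in the remaining difference was not tested.

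Markers of some cell types were also high in L − N libraries, while the summed CPM of 11 epithelium markers was low. That sum was 1486 to 1997 in L − N, 2281 to 2593 in L + N, 2535 to 3003 in H − N and 2268 to 2656 in H + N. Single epithelium markers went both ways, at −0.85 to 1.25 in H + N against L − N (median 0.04). There 2 of 11 passed as higher and 0 as lower (4.31% and 3.66% of all genes). The summed CPM of 7 macrophage markers was 1315, 3341 and 3460 in L − N replicates 1 to 3, and it was 1120 to 1573 in L + N, 672 to 978 in H − N and 1077 to 1345 in H + N, so that L − N replicate 1 lay within the ranges of L + N and H + N. Of these markers, 6 of 7 were lower in H − N, 3 in H + N and 1 in L + N than in L − N at an adjusted p under 0.05. Over all genes, the shares lower than in L − N were 3.71% in H − N, 3.66% in H + N and 3.63% in L + N. The sum of 7 smooth muscle markers was 5407, 1726 and 2137 CPM in L − N and 889 to 1693 CPM in the other groups, with 2 of 7 lower in L + N. With edgeR 0 passed in H − N and in H + N. There 4 and 3 had an unadjusted p under 0.05 (24.4% and 27.5% of all genes), and DESeq2 called 3 and 2 (13.6% and 17.5%). In L − N, GADD45A and the macrophage sum had the same order of replicates, and the smooth muscle sum had another. Of 15 immediate early genes, which handling of tissue can induce, 3 were lower in H − N and 1 each in L + N and H + N, and their sum was 616 to 884 CPM in L − N, 521 to 731 in L + N, 530 to 774 in H − N and 638 to 758 in H + N. The part of these cell types or of the immediate early genes in the level of GADD45A was not tested.

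GADD45B (ID 100621090), on chromosome 2 from 76107928 to 76111458 on the minus strand, is the family member induced by transforming growth factor beta and by NF-kappaB. GADD45B was at 45.6, 60.0 and 58.3 CPM in L − N, and at 26.5, 27.2 and 29.3 CPM in L + N. It was at 20.5, 28.2 and 56.6 CPM in H − N, and at 30.5, 29.8 and 58.1 CPM in H + N. L + N lay wholly below L − N, whereas replicate 3 of H − N and of H + N reached the range of L − N while the other libraries of these groups did not.

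The log2 fold change of GADD45B in L + N against L − N was −0.98 (95% interval −1.74 to −0.22, adjusted p = 0.0980). It was −0.64 in H − N (adjusted p = 0.281) and −0.47 in H + N (adjusted p = 0.408) against L − N. With all 12 libraries none passed with edgeR, and DESeq2 called GADD45B in L + N (−0.99, adjusted p = 0.0370), where its 3 members called stand against 18% of all genes. In L + N it also passed with edgeR when L − N and L + N were fitted alone (−0.98, adjusted p = 0.0117), with a replicate block (−0.97, adjusted p = 0.0482) and without H − N replicate 3 (−0.98, adjusted p = 0.0353). Without replicate 3 of both H − N and H + N, an alternative chosen after the data were seen, GADD45B passed as lower in all 3, with −0.98 in L + N (adjusted p = 0.0101), −1.17 in H − N (0.0296) and −0.86 in H + N (0.0380).

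GADD45G (ID 100152997) lies on chromosome 14 from 1166000 to 1167538 on the plus strand. GADD45G was at 14.8, 8.28 and 11.1 CPM in L − N, and at 9.07, 9.61 and 12.6 CPM in L + N. It was at 28.9, 23.3 and 49.0 CPM in H − N, and at 12.9, 13.5 and 104 CPM in H + N. Both low-fiber groups stayed under 15 CPM, every H − N library was above them, and in H + N replicate 3 alone was far above.

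High fiber against low fiber gave a log2 fold change of 1.81 for GADD45G (SE 0.492, 95% interval 0.73 to 2.89, unadjusted p = 0.00347, adjusted p = 0.102), which did not pass with edgeR. DESeq2 called it (1.80, adjusted p = 0.00420). Without H + N replicate 3 the value was 0.95 (adjusted p = 0.144). H − N against L − N gave 1.56 (95% interval 0.04 to 3.08, adjusted p = 0.192), with no overlap between the groups, and it passed only in the fit without H + N replicate 3 (1.56, adjusted p = 0.0265). H + N against L − N gave 1.92 (95% interval 0.40 to 3.45, adjusted p = 0.103), which DESeq2 called (1.91, adjusted p = 0.0239), and without H + N replicate 3 it gave 0.21 with edgeR. H + N against L + N gave 2.06 (unadjusted p = 0.0131, adjusted p = 0.910), and without H + N replicate 3 it gave 0.34. The values of H + N thus rested on 1 library.

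**Figure D2:**
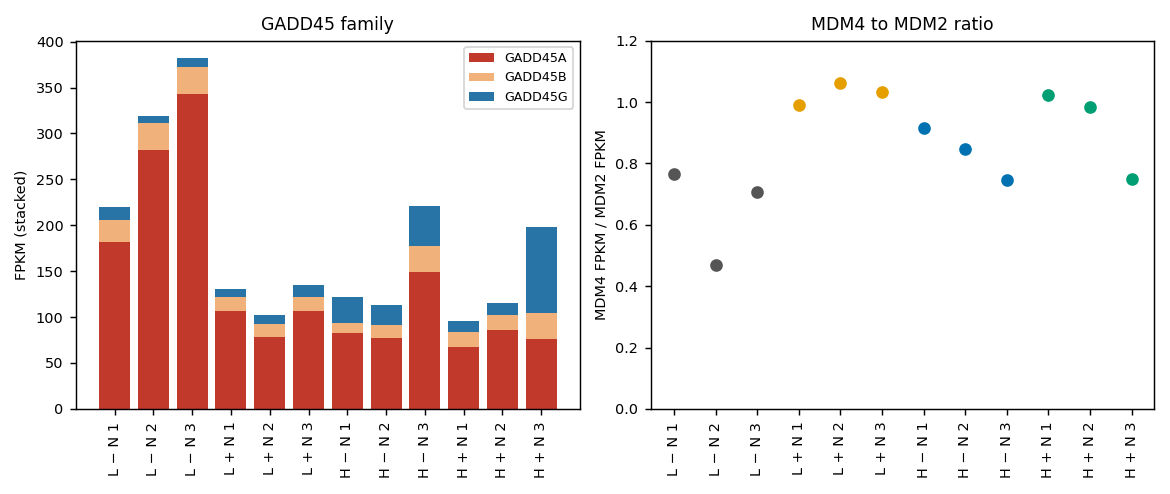
Left, FPKM of GADD45A, GADD45B and GADD45G stacked for each of the 12 libraries (x axis). Right, the ratio of MDM4 FPKM to MDM2 FPKM in the same libraries. The GADD45 sum is highest in L − N, 219 to 382 FPKM, and GADD45G holds 47.0% of it in H + N replicate 3.

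Per length, the 3 GADD45 genes together were at 219, 319 and 382 FPKM in L − N, and at 102 to 134 FPKM in L + N, 114 to 221 FPKM in H − N and 95.3 to 198 FPKM in H + N. GADD45A was the most abundant of the 3 in 11 libraries. Its share of the family was 82.9% to 89.9% in L − N, 76.4% to 81.6% in L + N and 67.6% to 67.8% in H − N. In H + N it was 70.5%, 74.6% and 38.2%, and GADD45G held 47.0% of the family in replicate 3. The share of GADD45G was 2.29% to 6.29% in L − N, 6.94% to 9.13% in L + N and 19.3% to 23.1% in H − N. The makeup of the family therefore differed between diets as well as its sum, but the shares had no test of their own.

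The genes closest to GADD45A over the 12 libraries were CORO2B (Pearson r = 0.965), GRB10 (0.960), NUAK2 (0.959), HTRA1 (0.955) and TAX1BP3 (0.953). On ranks of the libraries the correlations were lower, with a Spearman rho of 0.804, 0.783, 0.923, 0.797 and 0.755 in the same order. GRB10 encodes an adaptor that dampens insulin receptor signaling, NUAK2 a kinase related to AMPK, and HTRA1 a secreted protease of the extracellular matrix. As for MDM4, these values are descriptions without a test.

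CDKN1A encodes p21, the inhibitor of cyclin-dependent kinases through which p53 holds cells in G1. The gene (ID 100152215) lies on chromosome 7 from 32354776 to 32363771 on the plus strand. CDKN1A was at 52.3, 98.9 and 59.8 CPM in L − N, and at 47.8, 54.0 and 43.1 CPM in L + N. It was at 39.5, 49.8 and 46.1 CPM in H − N, and at 41.1, 56.4 and 40.5 CPM in H + N. L − N replicate 2 was far above the other 11 libraries, and H − N lay below all of L − N, while L + N and H + N overlapped with it.

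Against L − N, the log2 fold change of CDKN1A was −0.54 in L + N (95% interval −1.04 to −0.05, adjusted p = 0.147), −0.64 in H − N (95% interval −1.14 to −0.14, adjusted p = 0.117) and −0.61 in H + N (95% interval −1.11 to −0.12, adjusted p = 0.109). None passed. Without L − N replicate 2 the values were closer to 0, at −0.22, −0.31 and −0.29. Without L − N replicate 1, CDKN1A passed in H − N (−0.81, adjusted p = 0.0354) and in H + N (−0.79, adjusted p = 0.0442). With high fiber it was −0.35 (adjusted p = 0.252) and with NCG −0.26 (adjusted p = 0.360).

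CCNG1 encodes cyclin G1, a direct p53 target that recruits a phosphatase to MDM2. The gene (ID 595110) lies on chromosome 16 from 60349255 to 60356737 on the minus strand. CCNG1 was at 272, 264 and 325 CPM in L − N, and at 287, 263 and 254 CPM in L + N. It was at 245, 276 and 194 CPM in H − N, and at 267, 256 and 186 CPM in H + N. Replicate 3 of H − N and of H + N had the lowest values of the 12 libraries, and all groups overlapped. The log2 fold change with high fiber was −0.23 (95% interval −0.49 to 0.03, adjusted p = 0.322) and with NCG −0.06 (95% interval −0.32 to 0.20, adjusted p = 0.808). CCNG1 had the narrowest range among libraries relative to its level apart from MDM2, and no comparison of it passed.

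BBC3 encodes PUMA, and PMAIP1 encodes NOXA, BH3-only proteins through which p53 starts apoptosis at the mitochondria by binding BCL2 and its relatives. BBC3 (ID 100517403) lies on chromosome 6 from 53037103 to 53046902 on the minus strand. It was at 6.88, 6.65 and 6.65 CPM in L − N, and at 6.16, 4.42 and 5.69 CPM in L + N. It was at 4.51, 3.81 and 3.38 CPM in H − N, and at 3.63, 4.67 and 3.13 CPM in H + N. Every L − N library was above all others, and the lowest L + N library fell within the ranges of H − N and H + N.

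BBC3 had the lowest counts of the members, 49 to 127 reads per library. High fiber against low fiber gave a log2 fold change of −0.65 (SE 0.170, 95% interval −1.02 to −0.27, unadjusted p = 0.00281, adjusted p = 0.0971). Against L − N it was −0.78 in H − N (adjusted p = 0.0804), −0.82 in H + N (adjusted p = 0.0592) and −0.31 in L + N (adjusted p = 0.429). None passed with edgeR in any of the 12 fits that left out 1 library. DESeq2 called BBC3 in H − N (adjusted p = 0.0137), in H + N (0.00781) and with high fiber (0.00645). It called 2 members of 9 in H − N (13.6% of all genes), 4 in H + N (17.5%) and 3 with high fiber (7.33%). Its closest genes were TMEM151B (Pearson r = 0.971), USP20 (0.969), SBK1 (0.950), TRIM47 (0.940) and CACNB3 (0.938).

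PMAIP1 (ID 397278) lies on chromosome 1 from 161184458 to 161188138 on the minus strand. PMAIP1 was at 15.7, 27.4 and 23.9 CPM in L − N, and at 27.6, 16.8 and 27.8 CPM in L + N. It was at 14.9, 18.5 and 31.8 CPM in H − N, and at 18.0, 12.8 and 44.2 CPM in H + N. The spread within each group covered that between groups, with replicate 3 highest in L + N, H − N and H + N. The log2 fold change was 0.16 in H + N against L − N (95% interval −0.80 to 1.13, adjusted p = 0.850), 0.15 with NCG (adjusted p = 0.798) and 0.01 with high fiber (95% interval −0.68 to 0.69, adjusted p = 0.997). The interval of H + N against L − N includes a doubling of PMAIP1, and that of high fiber does not.

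**Figure D3:**
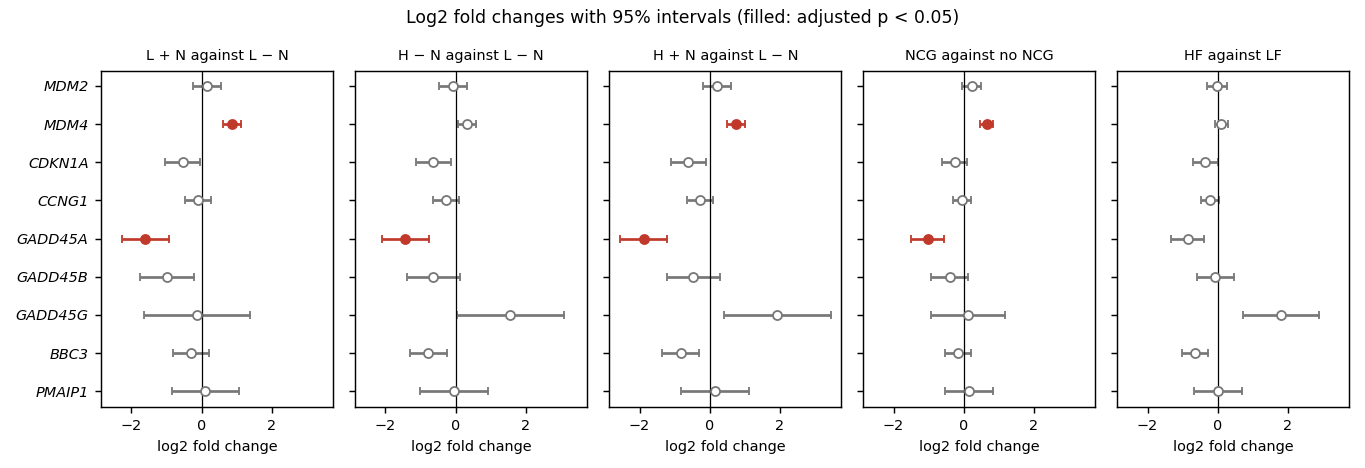
Log2 fold change (x axis) of the 9 genes (y axis) in 5 comparisons, with 95% intervals from the edgeR fit. Filled red points have an adjusted p under 0.05, which holds for MDM4 with NCG and in both NCG diets relative to the control, and for GADD45A in all comparisons except HF against LF.

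In the number of groups that did not overlap, 4 of the 9 members separated L + N from L − N (35.3% of all genes), 5 separated H − N from L − N (25.4%) and 3 separated H + N from L − N (28%). The 3 common to all were MDM4, GADD45A and BBC3. Between H + N and H − N, 1 member separated, MDM4 (13% of all genes), and between H + N and L + N, GADD45B and GADD45G (11%). No member separated high from low fiber over 6 libraries each (0.886%).

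With edgeR, 0 members passed for high against low fiber, where 0.0521% of all genes passed. At an unadjusted p under 0.05 there were 4, CDKN1A, GADD45A, GADD45G and BBC3, against 19.5% of all genes, and DESeq2 called 3, GADD45A, GADD45G and BBC3, against 7.33%. In H + N against H − N, 0 members passed with either tool, where edgeR called 0 of all genes and DESeq2 47. There 1 member had an unadjusted p under 0.05 (MDM4, against 8.67% of all genes). For H + N against L + N it was again 0 of 9 with either tool, where edgeR called 0 of all genes and DESeq2 2. At the unadjusted level it was 1 (GADD45G, against 4.68%). In the interaction, 0 members passed with either tool, where edgeR called 0 of all genes and DESeq2 302. An unadjusted p under 0.05 was seen for 3 members, namely MDM4, GADD45A and GADD45B, against 12.8% of all genes.

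H − N replicate 3 and H + N replicate 3 stood apart within their groups in several members at once, with GADD45G, GADD45B and PMAIP1 high and CCNG1 low. These libraries also had the highest sums over 9 stroma markers, 61826 and 60210 CPM, against 26518 to 47935 CPM in the other libraries. The sums were carried by the collagens COL1A1, COL1A2 and COL3A1, with COL3A1 at 30248 and 25641 CPM. Other stroma markers were not high there, with DCN at 2352 and 2373 CPM (2105 to 3889 over the 12 libraries) and VIM at 862 and 1213 CPM (862 to 3725). The part of stroma or of these collagens in the members' levels was not tested.

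The other genes of the p53 network were set beside the members as 5 lists by role, of which 63 of 67 genes were tested. With NCG, 11 of the 63 passed against 7.27% of all genes, 7 of them higher (5.67% of all genes) and 4 lower (1.6%). In H + N against L − N 14 passed against 7.97%, 5 higher (4.31%) and 9 lower (3.66%). In L + N against L − N 14 passed against 9.6%, 7 higher (5.97%) and 7 lower (3.63%). For H − N against L − N, 6 passed against 5.27%, all lower (3.71%). With high fiber 0 passed with edgeR, while 18 had an unadjusted p under 0.05 (19.5% of all genes) and DESeq2 called 10 (7.33%). The median log2 fold change over the 63 genes with NCG was −0.12, against −0.03 over all genes. Fits of 2 groups alone gave 4 of the 63 in H + N, 12 in L + N and 0 in H − N against L − N. Of all genes, 111, 1391 and 3 passed in these fits. A replicate block gave 9, 11 and 3 in the same order (730, 1097 and 380 of all genes), and 10 with NCG (854). Dropping L − N replicate 3 left 1 gene passing in H + N against L − N, and dropping H + N replicate 1 left 0, and with NCG it was 6 without either of these libraries and 5 without L + N replicate 2.

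Of 9 regulators and upstream kinases of p53 tested, 5 were higher with NCG (5.67% of all genes) and 0 lower (1.6%). ATM and ATR, the kinases that sense broken and stalled DNA, rose by 0.81 (SE 0.1004, adjusted p = 0.00578) and 1.04 (SE 0.143, adjusted p = 0.00578). ATM was at 42.0 to 45.2 CPM in L − N, 84.4 to 102 in L + N, 42.6 to 62.2 in H − N and 76.8 to 82.4 in H + N. CHEK2, a kinase that ATM activates, rose by 0.58 (adjusted p = 0.00715). ATM, ATR and CHEK2 are in the longest length class, as MDM4 is, and with the length trend removed they were at 0.62, 0.90 and 0.45 and still passed. For H − N against L − N, 0 of the 9 passed with edgeR (5.27% of all genes). There 6 had an unadjusted p under 0.05 (24.4% of all genes), and DESeq2 called 4 (13.6%).

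**Figure D4:**
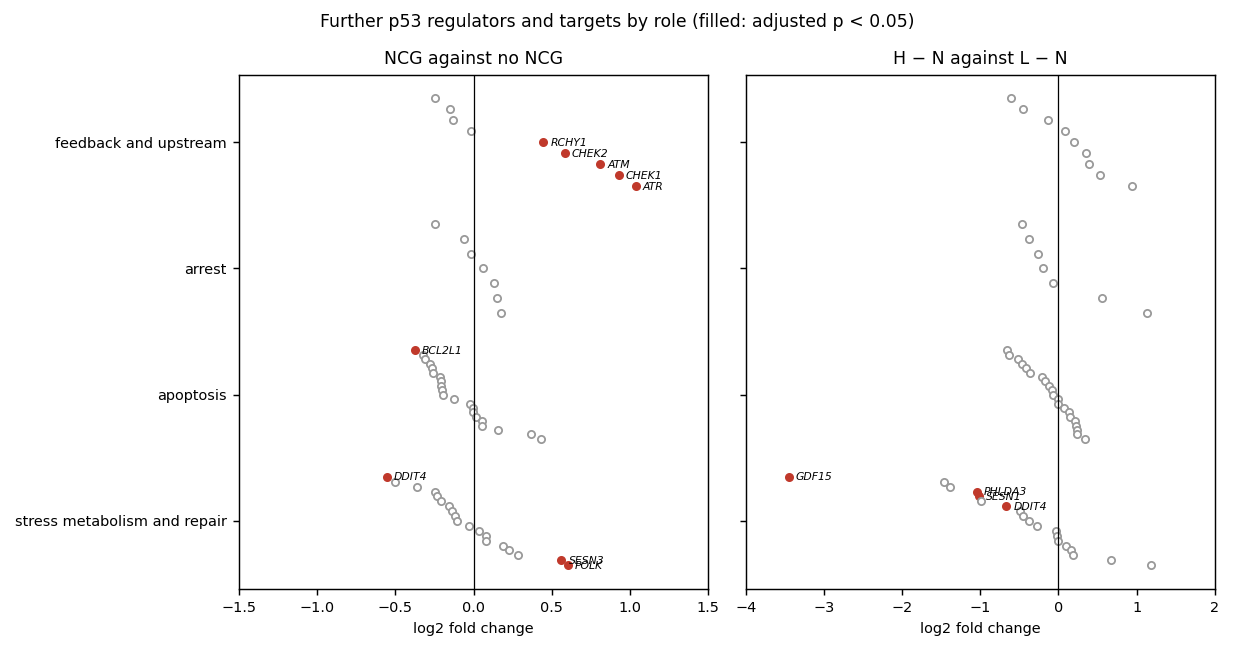
Log2 fold change (x axis) of 56 further p53 regulators and targets in 4 of the lists by role (y axis), without the secreted and membrane proteins, with NCG (left) and in H − N against L − N (right), on different x scales. Each point is a gene, and filled red points with a name have an adjusted p under 0.05: 9 on the left and 4 on the right.

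Among the stress and repair genes, 19 tested, 2 were higher with NCG (5.67% of all genes) and 1 was lower (1.6%). DDIT4, an inhibitor of mTORC1 induced by hypoxia and by p53, fell by 0.56 with NCG (adjusted p = 0.00578). DDIT4 was at 105 to 127 CPM in L − N, 63.5 to 74.1 in L + N, 69.4 to 79.6 in H − N and 56.8 to 60.1 in H + N. POLK, a DNA polymerase that reads past lesions, and SESN3 of the sestrin family rose with NCG, by 0.60 (adjusted p = 0.0180) and 0.56 (adjusted p = 0.0369). The call of POLK held in all 12 fits that left out 1 library, and that of SESN3 in 2 of them. Both genes are in the longest length class, as MDM4 is, where 13.4% of genes passed as higher with NCG. Against L − N, PHLDA3, a repressor of AKT, was lower in L + N (−0.85), H − N (−1.05) and H + N (−1.21), each with an adjusted p under 0.05. SESN1 was lower in H − N (−1.01, adjusted p = 0.0279) and H + N (−0.77, adjusted p = 0.0471), and the call in H + N held in 2 of the 12 such fits, against 10 for PHLDA3.

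Of 21 apoptosis genes, 0 were higher with NCG (5.67% of all genes) and 1 was lower (1.6%). The lower gene was BCL2L1, which encodes the survival protein BCL-XL (−0.38, adjusted p = 0.0236). In H + N against L − N, 2 were lower (3.66% of all genes) and 0 higher (4.31%). The 2 were BCL2L1 (−0.51, adjusted p = 0.0316) and MCL1, another survival protein (−0.58, adjusted p = 0.0378). In the fits without 1 library, BCL2L1 passed in 7 of 12 with NCG and in 8 of 12 in H + N, and MCL1 in 6 of 12. BCL-XL and MCL1 are partners that the product of BBC3 binds. Of 7 genes for secreted and membrane proteins, 2 were lower with NCG (1.6% of all genes). Among them was STEAP3 (−1.02, adjusted p = 0.0232), which passed in 9 of the 12 fits without 1 library. Lower in H + N against L − N were 3 (3.66% of all genes). Among these were STEAP3 (−1.35, adjusted p = 0.0332) and CD82 (−1.23, adjusted p = 0.0262), each passing in 8 of the 12. Of 7 other arrest genes, 0 passed in any comparison with edgeR or DESeq2, and at most 1 in a comparison had an unadjusted p under 0.05.

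Genes of dividing cells moved beside MDM4. Their summed level over 14 genes was 107 to 263 CPM in L − N, 290.0 to 339 in H − N, 462 to 645 in L + N and 448 to 623 in H + N. With NCG 10 of 14 were higher, against 5.67% of all genes. CDKN1A, which restrains division, was not different with NCG beyond its spread, as given above. The part of dividing cells in the rise of MDM4 was not tested.

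The deposited annotation places 68 genes in the KEGG p53 pathway, 67 of them tested. In H + N against L − N, 10 of these were differentially expressed at the limits of the study, against 3.58% of all genes. Of the 10, GADD45A was the only one of the 9 members, and 3 were mitotic genes (CCNB1, CCNB2 and CDK1). Among the others, ATR, CHEK1 and GORAB were higher, and CD82 and STEAP3 were lower.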

How the data were processed

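The authors deposited raw read counts and FPKM per gene and library on Sscrofa11.1. The submitters' processing notes name fastp 0.22.0, HISAT2 2.1.0 and HTSeq 0.9.1. The strand setting of the counting is not given in the sources used here, and no member overlaps another gene. The deposited FPKM follow from these counts by gene length and library total, as the authors computed them. Libraries were grouped by their titles. The counts entered edgeR 4.0.16 in R 4.3.3 (filterByExpr, TMM, quasi-likelihood fit of 4 group means, 8 residual degrees of freedom). SE is the log2 fold change divided by the square root of F. HF and NCG are averages of 2 groups minus the other 2. The method was tested on simulated data. Alternatives were DESeq2 1.42.0, RLE scaling, other filters, a replicate block, fits of 2 groups, removal of a length trend (an offset per library from a lowess of log2 deviation on log2 gene length, chosen after seeing the data), and leaving out libraries. The members and lists were chosen with earlier results of these data known. Other genes are named when they pass, at most 3 per list and comparison, and as the 5 genes most like a member, and 1 gene of the lists is counted but not reported here. Pairs of replicates differed by a chi-square of 22.8 to 98.6 per gene, where 1 is counting error, and the biological coefficient of variation was 0.269, so the spread between libraries limits precision more than depth.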

Additional observations from a re-analysis of the deposited data

How the results depend on the processing

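RLE scaling and both other filters on low counts moved no member across the threshold. Removal of the length trend moved no member across it either, while 1 of 26 results for genes picked from the lists lost its call. The number of members passing was 4 with DESeq2 for all 4 groups and for H + N against L − N, 3 for L + N against L − N, 2 for H − N against L − N and 3 for high fiber. Fits of 2 groups alone gave 1 for H + N, 3 for L + N and 0 for H − N against L − N. Of all genes, 111, 1391 and 3 passed in these fits. Without H − N replicate 3 and H + N replicate 3 together, chosen after the data were seen, the number of members was 4 for all 4 groups. It was 3 for H + N, 3 for L + N and 2 for H − N against L − N. Of all genes, 883, 558, 2080 and 262 passed in the same order. Leaving out 1 library gave 0 to 3 members for all 4 groups (4 to 1732 of all genes), 0 to 3 for H + N (1 to 1823), 1 to 3 for L + N (207 to 1964) and 0 to 2 for H − N against L − N (0 to 2025), 0 to 1 for high fiber (0 to 1088), 2 for NCG (519 to 1231), and 0 for the interaction and for the comparisons of H + N with H − N and L + N. The cause of these shifts was not tested. Deviations of same-numbered libraries correlated at −0.32 to 0.28, over 0.1 in 3 of 18 pairs and highest for H − N replicate 3 with H + N replicate 3, so the numbers were not taken to pair the samples. A replicate block gave 3 members in L + N against L − N (1097 of all genes), GADD45B added, and changed no other call of a member. Its effect on all genes was a drop from 1068 to 477 for all 4 groups. Signs turned for values near 0: GADD45G in L + N against L − N was 0.0155 with the length trend removed and −0.32 to 0.10 across libraries left out, and PMAIP1 in H + N against L − N was −0.00428 with the block, −0.54 without both replicates 3, and −0.54 to 0.46 across libraries left out.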
